A study of Rattus norvegicus with 12 samples.

Results

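On a rat circular RNA array, kidneys of the Dahl rat strains gave a lower mean signal than other strains for most tested linear mRNA probes. Among these probes, 3 had the largest differences the other way, with a higher mean in the Dahl strains. They are the probes for Ptk2b (A_44_P482346), Dlg4 (A_44_P238314) and Hsp90ab1 (CUST_8_PI421900130). They were chosen by their measured levels, selected on a higher mean in the Dahl strains, out of 35 probes to 34 named genes that were bright enough to test and 82 probes on the array that are neither controls nor circRNA probes. The difference between the strain pairs is therefore a description here and carries no test. A higher Dahl mean was not particular to them, since 5 of the 35 probes (14.3%) had one. The rats of the strain pairs overlapped for Ptk2b and Dlg4. Kidney RNA came from 12 male rats of 4 inbred strains, with 3 rats and 3 arrays per strain. All were 57 days old and had eaten a diet with 0.3% NaCl since weaning. Dahl salt-sensitive rats (S) become hypertensive on a high-salt diet, and Dahl salt-resistant rats (R) are bred as their counterpart. Spontaneously hypertensive rats (SHR) develop high blood pressure without added salt, and Wistar Kyoto rats (WKY) serve as their normotensive control. The labels give separate rats, so the spread within a strain is that between animals. The labels name no engineered allele or drug in any group, and the strains differ at many loci.

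Ptk2b encodes Pyk2, a calcium-dependent tyrosine kinase of the focal adhesion kinase family that passes signals from G protein-coupled receptors and integrins to Src and MAP kinases. Dlg4 encodes PSD-95, a scaffold protein of the membrane-associated guanylate kinase (MAGUK) family. It is best known for anchoring glutamate receptors and potassium channels at synapses. Hsp90ab1 encodes HSP90-beta, a constitutive cytosolic chaperone that matures kinases and steroid receptors, and is often used as a reference gene. Before random-primed labelling the RNA was digested with RNase R, which degrades linear molecules and leaves circles largely intact. A probe inside an mRNA exon can bind leftover linear RNA or a circular RNA that holds the same exon, and the arrays cannot tell these apart. In bulk kidney RNA, fewer cells of a type and less RNA per cell cannot be told apart either.

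The tissue could hardly be checked against its markers, because few have an mRNA probe here. Of 10 proximal tubule markers only Cyp2e1 had a probe, and it was above background on all 12 arrays. As log2 signal above or below the 75th percentile of the circRNA probes, it averaged -1.38 ± 0.11 (SD, n = 3) for S rats and -0.98 ± 0.30 for R rats. SHR rats averaged 0.40 ± 2.01 and WKY rats 0.96 ± 0.64. The mean of S and R minus that of SHR and WKY was -1.87 log2 units, opposite in sign to that of the 3 genes, and its part in their difference was not tested. This difference was also below 0 for most of the 35 tested mRNA probes (30), with a median of -1.50. For Cyp2e1, SHR rats ranged from -1.90 to 1.80 and overlapped the Dahl rats. A probe was found for 0 of 5 markers of the loop and distal tubule, 0 of 5 of the collecting duct, 0 of 4 of podocytes and 0 of 5 of endothelium and smooth muscle. Of 6 leukocyte markers Nlrp3 had a probe, and of 5 neuronal markers Map2 did.

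The probe sequences were not used here. The RefSeq promoter table of the rat assembly GRCr8 holds the start regions of Dlg4 and Hsp90ab1 and has no entry for Ptk2b. The 250 bases before each start are printed because these genes varied together between rats, as described further on. Capitals mark any match, on either strand, to 4 motifs. These are the CCAAT box, the GC box written as GGGCGG, the core of the TATA box written as TATAA, and paired units of the heat shock element written as GAANNTTC. The Dlg4 region lies at chr10:55239534-55239783 on the plus strand and the Hsp90ab1 region at chr9:22930173-22930422 on the plus strand.
Dlg4: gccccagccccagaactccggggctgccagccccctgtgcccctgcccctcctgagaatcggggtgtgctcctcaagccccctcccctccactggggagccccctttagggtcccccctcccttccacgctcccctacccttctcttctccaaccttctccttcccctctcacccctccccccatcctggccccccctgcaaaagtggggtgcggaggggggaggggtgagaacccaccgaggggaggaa
Hsp90ab1: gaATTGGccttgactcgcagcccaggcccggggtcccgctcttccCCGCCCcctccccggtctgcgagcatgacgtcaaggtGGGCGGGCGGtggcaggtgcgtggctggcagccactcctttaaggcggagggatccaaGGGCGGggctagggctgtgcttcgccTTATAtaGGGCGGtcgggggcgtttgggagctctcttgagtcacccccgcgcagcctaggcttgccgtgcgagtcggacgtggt
The Hsp90ab1 region held 5 matches to the GC box, 2 of them overlapping, with 1 to the CCAAT box and 1 to the TATA core. The Dlg4 region held 0 matches to any of the 4 motifs. Over 33469 rat promoters of this length, the GC box was found in 30.5%, the CCAAT box in 34%, the TATA core in 24% and the heat shock units in 7.23%. Both regions were rich in G and C, with 69.2% for Dlg4 and 68.4% for Hsp90ab1 against a median of 51.2%.

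Each of the 3 probes has 10 spots on every array, and all 10 were well above background on all 12 arrays. Levels are the mean log2 signal of the spots minus the 75th percentile of the circRNA probes on the same array, so 0 is a circRNA probe at that percentile. The spots of a probe agreed closely. The median SD over spots was 0.11 to 0.22 log2 units for Ptk2b, 0.039 to 0.099 for Dlg4 and 0.030 to 0.087 for Hsp90ab1 across the strains. In each strain it was below the SD over the rats of that same strain.

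The kinase gene Ptk2b had its brightest signal in S. The levels in S rats 1 to 3 were 1.80, 0.42 and 0.97, with a mean of 1.06 ± 0.69 (SD, n = 3). In R rats 1 to 3 they were -1.41, -0.81 and 0.16, with a mean of -0.69 ± 0.79. All S rats lay above all R rats, and R rat 3 came nearest to S. In SHR the levels were -3.47, -1.24 and -3.48 (-2.73 ± 1.29), and in WKY they were -1.93, -2.50 and -2.85 (-2.43 ± 0.46). SHR rat 2 stood above every WKY rat and within the range of R, while SHR rats 1 and 3 were the lowest of all 12. The order of the means was S, R, WKY and SHR. S did not overlap R and R did not overlap WKY, whereas WKY and SHR overlapped.

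The scaffold gene Dlg4 had its highest mean in R. Its levels in R rats 1 to 3 were 0.98, 1.77 and 1.93 (1.56 ± 0.51, SD, n = 3), and in S they were 0.82, 0.31 and 1.23 (0.79 ± 0.46). Those in WKY were 1.37, 0.14 and -0.59 (0.31 ± 0.99). Those in SHR were -0.75, 0.72 and -1.18 (-0.40 ± 1.00). The means ran from R through S and WKY to SHR, and every neighbouring pair in that order overlapped. WKY rat 1 lay above all 3 S rats, and SHR rat 2 lay above S rat 2. Map2, the neuronal marker with a probe, had means of -2.80 ± 0.14 in R, -2.26 ± 0.84 in S, -1.97 ± 0.51 in WKY and -1.96 ± 0.52 in SHR. Its mean was thus lowest in R, where that of Dlg4 was highest, but S rats ranged from -3.14 to -1.47 and overlapped R. A link of Map2 to the Dlg4 levels was not tested.

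The chaperone gene Hsp90ab1 varied least. Its levels in S rats 1 to 3 were 4.48, 4.36 and 4.32 (4.39 ± 0.082, SD, n = 3), and in R rats they were 4.29, 4.41 and 4.79 (4.50 ± 0.26). SHR rats stood at 3.55, 4.22 and 3.54 (3.77 ± 0.39) and WKY rats at 3.71, 3.41 and 3.53 (3.55 ± 0.15). All 6 Dahl rats lay above all 6 SHR and WKY rats, by a margin that SHR rat 2 nearly closed, and quantile normalization turned the direction of the difference between the pairs. R and S overlapped, as did SHR and WKY.

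**Figure D1:**
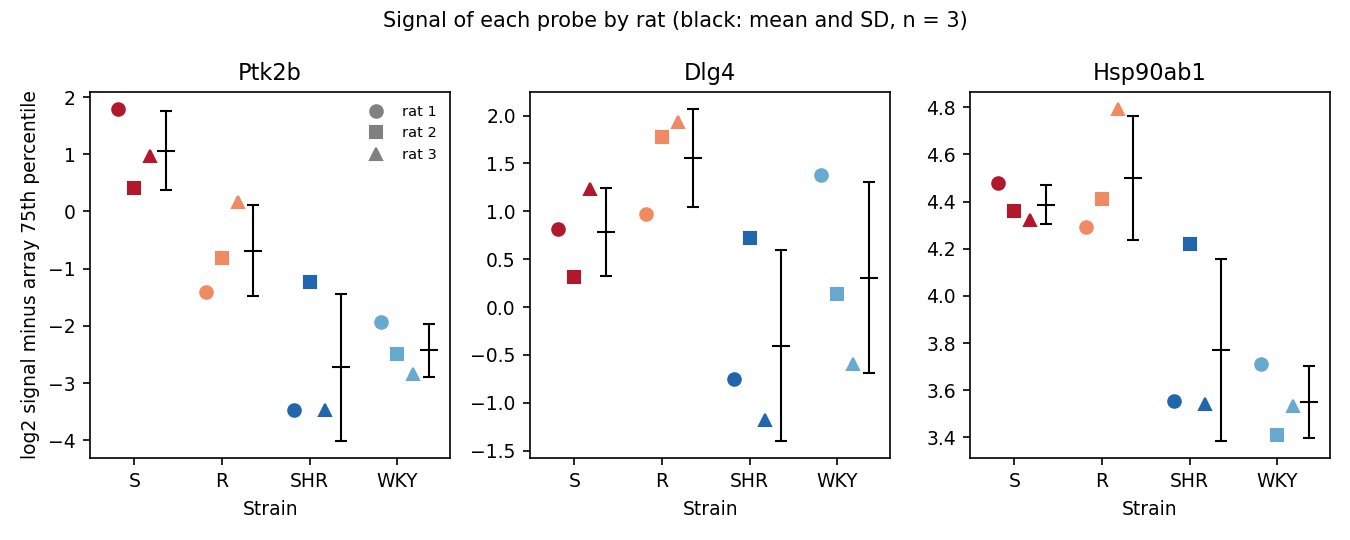
Level of the Ptk2b, Dlg4 and Hsp90ab1 probes in each of the 12 rats, as log2 signal minus the 75th percentile of the circRNA probes on the array (y axis, its range set for each panel), by strain (x axis). Marker shapes give the rat number, and the black bars the mean and SD of 3 rats. SHR rat 2 lies above SHR rats 1 and 3 in every panel, and the higher level of Hsp90ab1 in S and R was turned by quantile normalization.

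The values that chose the probes were these. The mean of S and R exceeded the mean of SHR and WKY by 2.77 log2 units for Ptk2b (6.80-fold), by 1.22 for Dlg4 (2.33-fold) and by 0.78 for Hsp90ab1 (1.72-fold), the last turning to -0.19 with quantile normalization. With normexp background correction the value of Ptk2b was 1.5. That of Dlg4 was 0.32 with slide, taken from the scan date, as a block and 0.42 within slide 1. Over all 35 probes the median of this difference was -1.50, and it was above 0 for 5 of them (14.3%). Both Dahl means were above both other means for 4 (11.4%), and all Dahl rats were above all SHR and WKY rats for 1 (2.86%), Hsp90ab1. Just outside the choice stood Med16, a subunit of the Mediator complex, at 0.49, whose R mean lay just under its SHR mean, both at -2.45 when rounded. Nlrp3, an inflammasome sensor, followed at 0.23, with both Dahl means above both others. Its probe was above background on only 2 of the 3 arrays in S and in SHR. The opposite end held Rplp1, a ribosomal protein gene, at -4.46.

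The same difference can be split by comparison. S minus SHR was 3.79 for Ptk2b, 1.19 for Dlg4 and 0.62 for Hsp90ab1, and R minus WKY was 1.74, 1.25 and 0.95. Of the 35 probes 15 (42.9%) differed in S vs SHR and 16 (45.7%) in R vs WKY by the limma test with Benjamini-Hochberg adjusted p under 0.05, nearly all of them lower in the Dahl strain. All S rats lay above all SHR rats for 2 probes (5.71%), Ptk2b and Hsp90ab1, and below them for 9 (25.7%). All R rats lay above all WKY rats for the same 2 (5.71%) and below them for 24 (68.6%). The probe choice used these contrasts, so nothing is read from these shares. By value alone, the gap of Ptk2b was wider in S vs SHR than in R vs WKY, that of Hsp90ab1 narrower and that of Dlg4 about equal. The difference of these gaps equals that of the changes inside the pairs, tested further on, where 0 of the 35 probes passed.

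**Figure D2:**
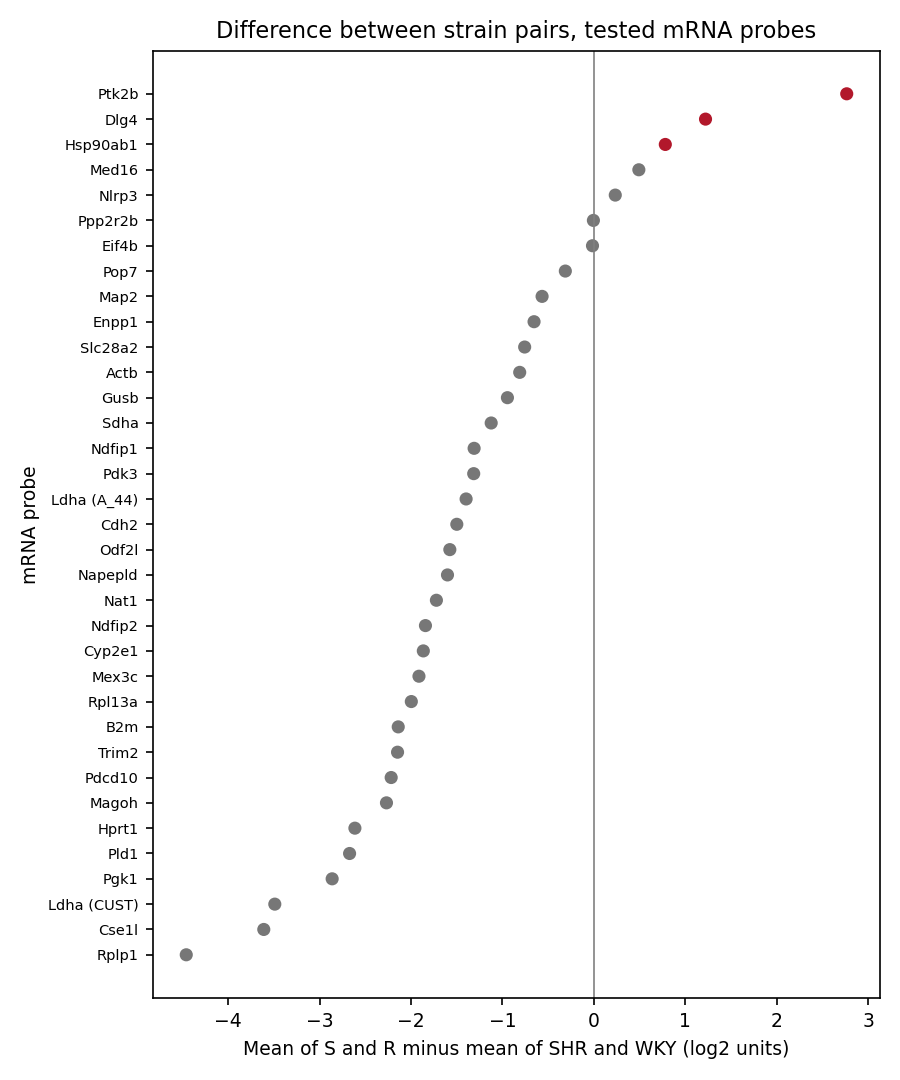
Difference between the mean of S and R and the mean of SHR and WKY (x axis, log2 units) for each of the 35 tested mRNA probes (y axis, ordered by the difference). Red points are Ptk2b at 2.77, Dlg4 at 1.22 and Hsp90ab1 at 0.78, which were chosen for this position, and 5 of the 35 probes lie above 0. Quantile normalization moved Hsp90ab1 to -0.19, normexp moved Ptk2b to 1.5, and slide as a block moved Dlg4 to 0.32.

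Arrays with the same scan date in the file headers are called a slide here. By that date all S and R arrays shared slide 1 with WKY rats 1 and 2, while WKY rat 3 and the SHR rats were on slide 2. Within slide 1 the mean of S and R exceeded the mean of WKY rats 1 and 2 by 2.40 for Ptk2b, by 0.42 for Dlg4 and by 0.88 for Hsp90ab1. With slide as a block in the fit, the difference between the pairs was 2.34, 0.32 and 0.76. Over all 12 arrays, SHR included, the differences were 2.77, 1.22 and 0.78. The within-slide values leave out SHR, so the sets of rats differ. The block rests on WKY, the only strain on both slides, with 1 array on slide 2. The part of the slide in the difference between the pairs was not tested. The processed signal of Ptk2b was 13.8 and 11.7 intensity units in SHR rats 1 and 3 over a local background of 27.5 and 30.0.

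The other mRNA probes showed the opposite pattern over the arrays. The median level of the 32 others lay between -2.49 and -2.12 on the 6 Dahl arrays, and at -1.48, -0.39 and -0.94 in WKY rats 1 to 3. SHR rats 1 and 3 stood at -0.83 and -0.96, but SHR rat 2 at -2.30, among the Dahl arrays. On that same array Ptk2b, at -1.24, lay within the R range, Dlg4, at 0.72, within the S range, and Hsp90ab1, at 4.22, just under the lowest Dahl rat at 4.29. SHR rat 2 was thus close to the Dahl arrays in both respects. The part of this shared signal in the difference between the pairs was not tested. Relative to the median of the other mRNA probes, the differences between the pairs were 3.87 for Ptk2b, 2.33 for Dlg4 and 1.89 for Hsp90ab1.

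**Figure D3:**
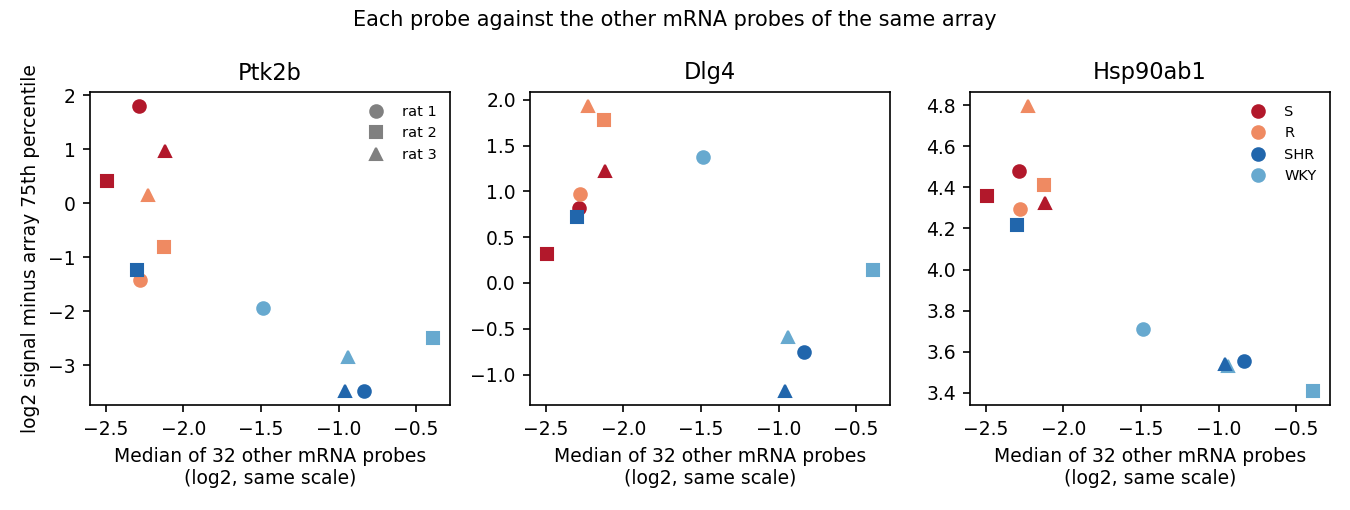
Level of each probe (y axis) against the median of the 32 other mRNA probes on the same array (x axis), both as log2 signal minus the 75th percentile of the circRNA probes. Colours give the strain and shapes the rat number. SHR rat 2, at -2.30 on the x axis, sits with the S and R arrays, which lie between -2.49 and -2.12, and the S and R points of Ptk2b spread from -1.41 to 1.80 over that narrow range.

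Differences inside the strain pairs were not used to choose the probes and were tested. S vs R asks whether the salt-sensitive strain differs from its resistant counterpart. Ptk2b was 1.75 log2 units higher in S (3.36-fold, SE 0.66, 95% interval 0.31 to 3.19), with S above R for every pair of rats, but it did not pass over the 35 probes (limma, 3 rats per strain, unadjusted p = 0.0213, Benjamini-Hochberg adjusted p = 0.389). Dlg4 had a difference of -0.77 (SE 0.62, interval -2.12 to 0.57, limma adjusted p = 0.703), and Hsp90ab1 one of -0.11 (SE 0.37, interval -0.92 to 0.70, limma adjusted p = 0.968). The median of the 32 other mRNA probes lay at -2.49 to -2.12 in S and at -2.28 to -2.13 in R. Of the 35 probes 0 (0%) passed in limma, 2 had an unadjusted p under 0.05 (Ptk2b and Pdk3, a pyruvate dehydrogenase kinase gene, at -1.15 in S minus R). Ptk2b was 1 of 2 probes (5.71%) whose S rats all lay above all R rats, and 3 (8.57%) had all S rats below. Over all alternatives the Ptk2b difference ran from 1.00 to 2.17 and its limma adjusted p from 0.114 to 0.967.

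The smallest difference came from unscaled signal. The mean processed signals of Ptk2b were 258, 379.7 and 294 intensity units in S rats 1 to 3 and 96.1, 137 and 276 in R, so R rat 3 overlapped S before scaling. S rat 1 was on the dimmest array, whose circRNA 75th percentile was 6.22 log2 units against 7.02 to 8.15 on the other 11. Without S rat 1 the scaled difference of Ptk2b was 1.38.

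Inside the other pair, SHR vs WKY compares a hypertensive strain with its control. The differences were -0.30 for Ptk2b (SE 0.66, 95% interval -1.74 to 1.14, limma adjusted p = 0.777), -0.71 for Dlg4 (SE 0.62, interval -2.05 to 0.63, limma adjusted p = 0.776) and 0.22 for Hsp90ab1 (SE 0.37, interval -0.59 to 1.03, limma adjusted p = 0.777). The intervals allow changes of more than 1 log2 unit in either direction for Ptk2b. All SHR arrays were on slide 2 and 2 of the 3 WKY arrays on slide 1. With slide as a block the directions for Ptk2b and Dlg4 turned, to 0.12 and 0.19, and that of Ptk2b also turned with normexp, to 0.090, and with scaling on the other mRNA probes, to 0.13. Without SHR rat 2 the differences were -1.05 for Ptk2b, -1.27 for Dlg4 and -0.0033 for Hsp90ab1. Of the 35 probes 0 (0%) passed in limma, and 0 had an unadjusted p under 0.05. All SHR rats lay above all WKY rats for 0 (0%) and below them for 1 (2.86%).

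Subtracting the change inside the other pair from that inside the Dahl pair gave 2.05 for Ptk2b (SE 0.94, 95% interval 0.014 to 4.09, limma unadjusted p = 0.0486, adjusted p = 0.995). It was -0.063 for Dlg4 (SE 0.87, limma adjusted p = 0.996) and -0.33 for Hsp90ab1 (SE 0.53, limma adjusted p = 0.995). Of the 35 probes 0 (0%) passed in limma, and Ptk2b was the 1 probe with an unadjusted p under 0.05. Over its alternatives the Ptk2b value ran from 1.20 with normexp to 2.8 without SHR rat 2, and the limma adjusted p from 0.0743, without that rat, to 0.998. It was 1.41 without scaling and 1.63 with slide as a block.

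**Figure D4:**
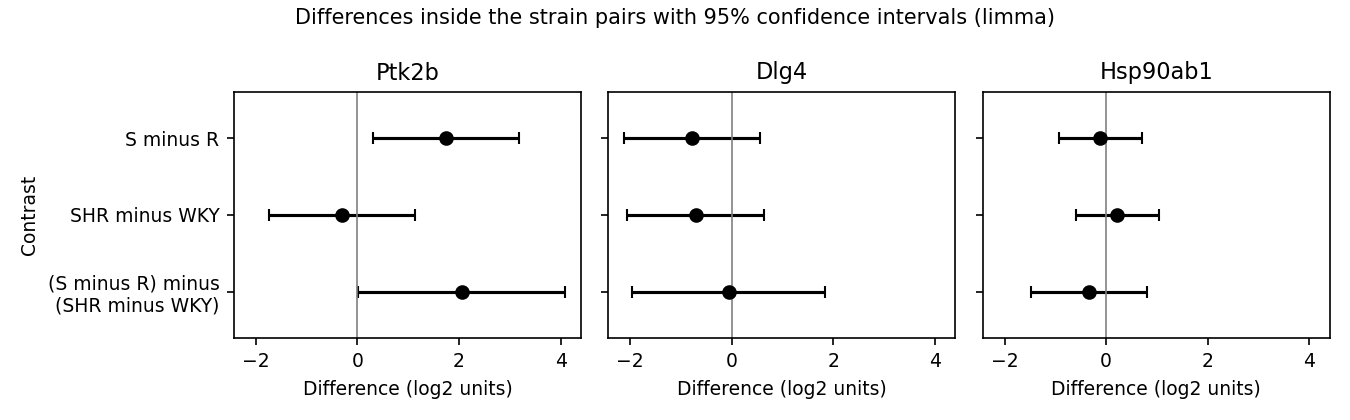
Differences inside the strain pairs for the Ptk2b, Dlg4 and Hsp90ab1 probes (x axis, log2 units), with points for the limma estimate and bars for its 95% confidence interval before any adjustment for the 35 probes. The contrasts are S minus R, SHR minus WKY and their difference (y axis). The interval of Ptk2b for S minus R runs from 0.31 to 3.19, and those of Dlg4 and Hsp90ab1 include 0 in every contrast.

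Dividing the signals of paired probes on one array removes any scaling between arrays. Probes differ in brightness, so only the change of such a ratio between rats can be read. These ratios were examined after the levels had been seen. The log2 ratio of Ptk2b to Dlg4 was 0.98, 0.10 and -0.25 in S rats 1 to 3, while the 9 rats of the other strains lay between -3.30 and -1.77. S thus stood apart from R, SHR and WKY together, and the other strains overlapped each other. The ratio of Ptk2b to Hsp90ab1 behaved alike, with S between -3.94 and -2.68 and the other 9 rats between -7.02 and -4.63. The ratio of Dlg4 to Hsp90ab1 in S, -4.05 to -3.09, fell inside the range of the others, -4.72 to -2.34.

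In S vs R the ratio of Ptk2b to Dlg4 differed by 2.52 log2 units, from 0.28 ± 0.64 (SD, n = 3) to -2.25 ± 0.43, with an exact two-sided permutation p = 0.1. That of Ptk2b to Hsp90ab1 differed by 1.86 (exact permutation p = 0.1), and that of Dlg4 to Hsp90ab1 by -0.66 (exact permutation p = 0.2). An exact p of 0.1 is the smallest that 3 rats against 3 can give, and over 6 such tests it became 0.3 after Benjamini-Hochberg adjustment. In SHR vs WKY the differences were 0.41 for Ptk2b to Dlg4 (exact permutation p = 0.5), -0.52 for Ptk2b to Hsp90ab1 (exact permutation p = 0.4) and -0.93 for Dlg4 to Hsp90ab1 (exact permutation p = 0.2), or 0.5, 0.48 and 0.3 after adjustment.

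**Figure D5:**
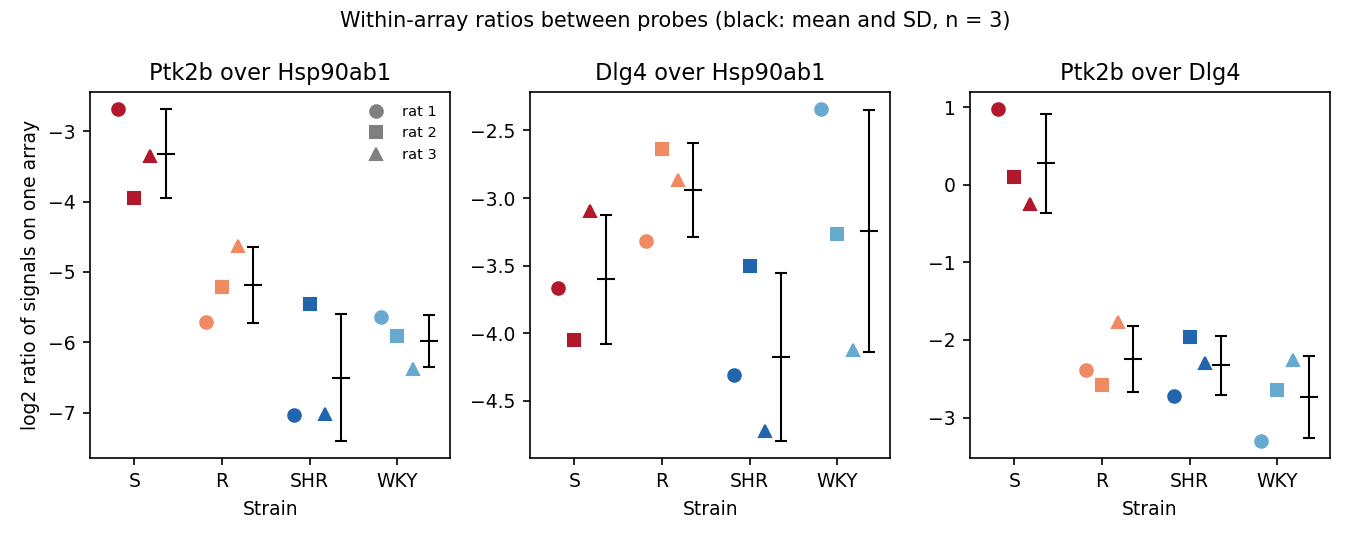
Log2 ratio of the signals of paired probes on the same array (y axis, its range set for each panel) by strain (x axis), for Ptk2b over Hsp90ab1, Dlg4 over Hsp90ab1 and Ptk2b over Dlg4. Marker shapes give the rat number and the black bars the mean and SD of 3 rats. For Ptk2b over Dlg4 the S rats lie between -0.25 and 0.98 and all 9 others between -3.30 and -1.77.

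Rats of one strain that were high for one of these genes tended to be high for the others. This was measured on deviations from the strain means. The choice of probes used the strain means, but it took probes that ran against the other mRNA probes. The median of those others also varied between rats of a strain, so the likeness may not be independent of the choice. Ptk2b and Hsp90ab1 had Pearson's r = 0.93 and Spearman's rho = 0.87 over the 12 arrays, Ptk2b and Dlg4 r = 0.82 and rho = 0.79, and Dlg4 and Hsp90ab1 r = 0.75 and rho = 0.63. For each of the 3 probes the other 2 ranked first and second among 34 mRNA probes. The probe in the third place was each time Ppp2r2b, a regulatory subunit gene of protein phosphatase 2A, with r = 0.77 for Ptk2b, 0.64 for Dlg4 and 0.69 for Hsp90ab1. Among the 32 other probes, r was above 0 with only 3 for Ptk2b, 4 for Dlg4 and 3 for Hsp90ab1, and its median was -0.65, -0.65 and -0.69.

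SHR rat 2 supplied part of this likeness. Without it r was 0.83 for Ptk2b with Hsp90ab1, 0.68 for Ptk2b with Dlg4 and 0.54 for Dlg4 with Hsp90ab1, and it was 0.46, 0.32 and 0.23 for Ppp2r2b with Ptk2b, Dlg4 and Hsp90ab1. Leaving out the 2 arrays with the most extreme Ptk2b deviations gave 0.82 with Hsp90ab1 and 0.73 with Dlg4, and leaving out those with the most extreme Dlg4 deviations gave 0.52 for Dlg4 with Hsp90ab1. The points share an array and its scaling value, and these coefficients are descriptions.

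On levels, which the choice did use, the nearest mRNA probes outside the 3 were Med16 for Ptk2b (r = 0.65) and Nlrp3 for Dlg4 (r = 0.55) and Hsp90ab1 (r = 0.57). Nlrp3 was above background on only 2 of the 3 arrays in S and in SHR. The likeness of Med16 fell to 0.10 without the 2 arrays whose Ptk2b level was most extreme. Some circRNA probes followed the genes much more closely. For Ptk2b the first of 12438 was ASCRPR006663 (r = 0.998, rho = 0.993), followed by ASCRPR011050 and ASCRPR008296 (both r = 0.985). The level of ASCRPR006663 was 2.68, 1.90 and 2.29 in S rats 1 to 3, 0.77, 1.27 and 1.78 in R, -0.69, 0.79 and -0.61 in SHR, and 0.27, -0.0054 and -0.21 in WKY. It kept the strain order of Ptk2b, the gap between S and R and the high SHR rat 2. Its r was 0.997 without the 2 most extreme arrays.

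For Dlg4 the first was ASCRPR005902 (r = 0.987, rho = 0.965), ahead of ASCRPR005534 (r = 0.986) and ASCRPR000371 (r = 0.984). ASCRPR005902 ranged from 2.23 to 3.15 in R and from 0.63 to 2.40 in SHR. For Hsp90ab1 the nearest were ASCRPR012740 (r = 0.980, rho = 0.916), ASCRPR014102 (r = 0.978) and ASCRPR010812 (r = 0.976). In all, 228 circRNA probes reached r of at least 0.95 with Ptk2b, 10 with Dlg4 and 54 with Hsp90ab1. At r of -0.95 or below there were 60 for Ptk2b, 0 for Dlg4 and 71 for Hsp90ab1, so more circRNA probes ran opposite to Hsp90ab1 than with it at this level. The median r over all 12438 was 0.014, -0.023 and -0.010. The highest of so many coefficients is high by selection, and the genes that these circRNAs come from are not paired with the probes in the files used here.

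The pathways of the 3 genes are almost absent from these mRNA probes. Of 24 focal adhesion and Src kinase genes only Ptk2b had a probe. Of 25 postsynaptic scaffold genes 2 had one, and only that of Dlg4 passed the background rule. Of 23 genes of the HSP90 system only Hsp90ab1 had one. Common reference genes were better covered, with 10 of 18 genes on 11 tested probes. Hsp90ab1, chosen for a higher mean in S and R than in SHR and WKY, was the 1 of these 11 that had one. Over all 35 tested probes 5 (14.3%) had one. The median of this difference over the 11 was -2.0 log2 units, and quantile normalization turned Hsp90ab1 too. In S vs R and in SHR vs WKY 0 of the 11 passed in limma, with a median difference of -0.11 and -0.67.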

How the data were processed

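The authors deposited scanner files of 12 one-colour arrays. Per the file headers, Agilent Feature Extraction 11.0.1.1 subtracted the background and spatial trend from every spot, and the resulting intensity is not normalized between arrays. Per the labels' protocols, RNA was treated with RNase R and labelled with Cy3. The number of arrays limits the precision.

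Spots flagged as outliers were left out (5 of 360 spots of the 3 probes, none saturated). The log2 intensities of the remaining spots were averaged per probe, and the 75th percentile over 14145 circRNA probes was subtracted per array. The RefSeq table of GRCr8, joined on accessions without version, gave a gene for 39 of 62 probes. The 35 that had more than 50% of their spots well above background on all arrays of a strain were fitted with limma 3.58.1 in R 4.3.3 (a mean per strain, 8 residual degrees of freedom, Benjamini-Hochberg over the 35, threshold 0.05), a procedure tested on simulated data. Of the circRNA probes 12438 passed the same background rule and also kept a value, after flagged spots were left out, on most arrays of every strain. Other genes were named where they were nearest in likeness, next in the choice, on a fixed list or singled out by a small count, the last after values were seen. The members, lists and tests were chosen with earlier results of these data known.

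Alternatives changed the background correction (normexp, offset 50), scaling, filters, probes fitted, spot average, variance model, strains fitted, slide or replicate block, and each rat. The slide of an array was inferred from the scan date in its file header. The deposited value table holds circRNA probes only and was not used.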

Additional observations from a re-analysis of the deposited data

How the results depend on the processing

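Ptk2b, Dlg4 and Hsp90ab1 passed in none of the 27 alternatives of S vs R, the 27 of SHR vs WKY or the 25 of the difference between them. The counts of passing probes stayed at 0, except 1 in S vs R without S rat 2, so that leaving out 1 rat gave 0 to 1. Directions near 0 turned. For Ptk2b SHR minus WKY was 0.090 with normexp, 0.13 with scaling on the other mRNA probes and 0.12 both with slide as a block and on slide 2 alone, and -1.05 to 0.071 without 1 rat. For Dlg4 the slide block and slide 2 alone both gave 0.19. Its S minus R change less its SHR minus WKY change was 0.0064 with median scaling and -0.60 to 0.50 without 1 rat. For Hsp90ab1 S minus R was -0.21 to 0.036 and SHR minus WKY -0.0033 to 0.34 without 1 rat. The mean of S and R minus that of SHR and WKY moved to 1.5 (Ptk2b, normexp), to 0.32 and 0.42 (Dlg4, slide as a block and within slide 1) and, with scaling on the other mRNA probes, to 3.87, 2.33 and 1.89 (Ptk2b, Dlg4 and Hsp90ab1), since that scaling moved the median of all circRNA probes by 1.1. Quantile normalization turned it for Hsp90ab1 to -0.19. Unscaled signal moved the circRNA median of S minus R from 0.031 to -0.72. The cause of these shifts was otherwise not tested. Of 18 same-numbered pairs of rats, 4 deviated together with r above 0.1, and r ran from -0.54 to 0.52. Rats with different numbers were not compared, so this does not settle whether replicate numbers pair the rats. With the replicate block the S minus R difference of Ptk2b was 1.75 with a limma adjusted p of 0.68, and 0 probes passed. Slide fits on 1 slide were added after seeing the data. WKY had 1 array on slide 2, assumed to vary like the SHR arrays there.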

Other observations

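Beside the named probes, 20 probes with an accession that matched no gene here were above background on all arrays of a strain. The mean of S and R was higher than that of SHR and WKY for 5 of the 20, and both Dahl means were above both others for 4. The largest such difference was 0.60 log2 units, for A_44_P480605, whose mean level was 4.79 for S and 4.77 for R against 4.15 for SHR and 4.22 for WKY. On none of the 20 were all Dahl rats above all SHR and WKY rats, and their median difference was -1.61. These probes were examined after the data had been seen and were not tested.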
